A study of Homo sapiens with 24 samples.

Results

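The 44 genes described here act at the G1/S transition and in DNA replication, and their nascent transcription was followed in 24 PRO-seq libraries of dTAG-TRPS1 T47D cells. They were taken by gene symbol from a list of names drawn up with earlier results of these data known, out of 60605 Ensembl identifiers in the count table, and all 44 were found. None was lost to the filter on low counts, which left 22326 genes to test. By role they comprised 5 G1/S cyclins, kinase and phosphatase, 4 E2F factors, 10 origin licensing factors, 6 helicase activation factors, 11 DNA synthesis factors, 4 enzymes of nucleotide supply and 4 factors of chromatin and histone supply.

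Entry into S phase is driven by cyclin D and cyclin E kinases, which inactivate the retinoblastoma proteins and release E2F transcription factors. E2F target genes encode the proteins that load and activate the MCM helicase at origins, copy the DNA, make deoxynucleotides and package the new strands, and their transcription is highest around the start of S phase. CCND1 stands somewhat apart, since cyclin D1 is transcribed in response to growth factors and, in luminal breast cancer cells, to estrogen.

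T47D is an estrogen receptor positive luminal breast cancer cell line. In Clones 28, 35 and 39 a degron tag was inserted at the endogenous TRPS1 locus, TRPS1 being a GATA-family repressor. Each line is 1 clone from a second round of cloning of a single earlier clone. Per the study, more than 1 genomic copy of TRPS1 is knocked out in each clone, which makes only the tagged protein. Cells of every clone received either 0.1% DMSO or 100 nM dTAG-13, the small molecule that triggers degradation of the tagged protein, for 90 minutes, with 4 replicates in each of the 6 groups. The replicates were collected at different times of 1 day, both treatments of a clone together, so that libraries of 1 clone with the same replicate number form a pair. The clock times are not given in the sources used here, nor is it stated that a number marks the same time in every clone. Each library came from its own dish of 1 line, so the p-values measure the spread between dishes of these lines. In fits that leave out the replicate number, this spread includes that between collections.

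In PRO-seq, polymerases engaged on genes extend their RNA by a labelled nucleotide, and the counts per gene therefore measure ongoing transcription. The libraries held 3226718 to 9575803 counts (median 5042122), and a member had between 38 and 2942 counts in a library. TRPS1 itself, whose protein rather than gene is targeted, remained transcribed in all of them, at 5183 to 9296 CPM (counts relative to the TMM-scaled library size), and its protein level is not measured by these data. All 8 luminal markers passed the filter with summed levels of 3670 to 5806 CPM, and the defining basal markers KRT5 and KRT14, the stromal markers COL1A2 and PDGFRB, the endothelial marker CDH5 and the leukocyte markers CD3E and CD14 did not pass it.

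The proximal promoters of the members held the letters that E2F factors recognise more often than the promoters of all genes did, as a description with no test. Of the 44 members, 37 matched RefSeq's table of promoters (build GRCh38.p14, 250 bases before to 50 after each start), and CCND1, CCNE2, CDK2, E2F8, GINS4, MCM4 and MCM5 did not. E2F letters (TTTCCCGC, TTTCGCGC, TTTGCCGC or TTTGGCGC, either strand) were found in 20 of 37 members, or 54.1%, against 4.0% of the 27305 genes in the table. The NF-Y letters CCAAT were found in 23 members (62.2% against 39.7%), the GC box GGGCGG in 29 (78.4% against 48.3%) and the CHR letters TTTGAA, typical of G2/M genes, in 1 (2.7% against 18.2%). The 27305 genes were not limited to protein-coding ones, which all members are, and base composition was not matched. The promoters of E2F1, MCM6 and RRM2 are shown because later results turn on these genes, with E2F letters in capitals for E2F1 and MCM6 and the CCAAT letters in capitals for RRM2, each as the 250 bases before the start on the strand of the gene.
E2F1, chr20:33686386-33686635, minus strand: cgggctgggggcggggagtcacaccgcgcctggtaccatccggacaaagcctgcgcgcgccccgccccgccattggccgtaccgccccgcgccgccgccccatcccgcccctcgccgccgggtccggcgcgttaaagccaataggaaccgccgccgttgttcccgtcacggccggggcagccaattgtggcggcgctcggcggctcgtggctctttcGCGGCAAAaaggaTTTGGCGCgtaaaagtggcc
MCM6, chr2:135876444-135876693, minus strand: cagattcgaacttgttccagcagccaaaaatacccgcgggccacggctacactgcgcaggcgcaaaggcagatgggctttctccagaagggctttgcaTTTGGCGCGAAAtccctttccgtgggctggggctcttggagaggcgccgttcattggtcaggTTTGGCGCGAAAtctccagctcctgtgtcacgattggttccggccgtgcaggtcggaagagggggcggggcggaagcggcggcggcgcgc
RRM2, chr2:10122489-10122738, plus strand: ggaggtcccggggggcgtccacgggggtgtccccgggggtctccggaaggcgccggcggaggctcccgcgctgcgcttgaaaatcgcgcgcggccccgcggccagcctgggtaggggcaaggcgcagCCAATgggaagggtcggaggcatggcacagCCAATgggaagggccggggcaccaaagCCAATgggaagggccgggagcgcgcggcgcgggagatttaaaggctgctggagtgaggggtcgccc
MCM6 held 4 matches to the E2F letters, which overlap on opposite strands in 2 stretches, and RRM2 held none in this window.

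Over the 12 DMSO libraries the members were transcribed above the typical gene. Their median level per length was 1.99 CPM per kb of gene, against 1.05 for the 14905 protein-coding genes tested. CCND1, encoding cyclin D1, was highest with 9.93 ± 0.915 CPM per kb (SD, n = 12), followed by MCM4, a helicase subunit, with 8.25 ± 1.13 and PCNA, the sliding clamp of the replicative polymerases, with 8.21 ± 1.48. The ranges of these 3 genes over libraries overlapped, so their order is not beyond their spread. The lowest were ORC1, the largest origin recognition subunit, with 0.810 ± 0.146, RFC3, a clamp loader subunit, with 0.623 ± 0.0742, and GINS3, of the GINS helicase complex, with 0.112 ± 0.0172 CPM per kb. By this measure the range of GINS3 lay below that of every other member. Length is that of the whole annotated gene body, however, which for GINS3 is 111.07 kb (58295080 to 58406147). Its matched promoter lies inside that span (chr16:58392221-58392520). Counted from there, the gene would be shorter and its level per kb higher, so its rank is uncertain. Genes on the same strand share counts where they overlap, which covers 98.4% of FEN1 (inside FADS2) and 50.6% of PRIM1 (with NACA), so the values of these 2 members are uncertain.

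Across the 24 libraries the members varied mainly with the replicate number and the clone, and hardly with the treatment. The replicate number went with a median of 47.7% of a member's variance of log2 CPM, the clone with 27.3%, the treatment with 0.399% and the remainder with 20.9%. Over all genes tested the medians were 17.1%, 21.3%, 1.48% and 45.6%. The replicate number held the largest share in 26 members and the clone in 14, and the treatment in none. The share of the number was highest for TK1, thymidine kinase of nucleotide salvage (77.8%), and that of the clone for RFC4, a clamp loader subunit (86.2%). These shares are descriptions, with no test.

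**Figure D1:**
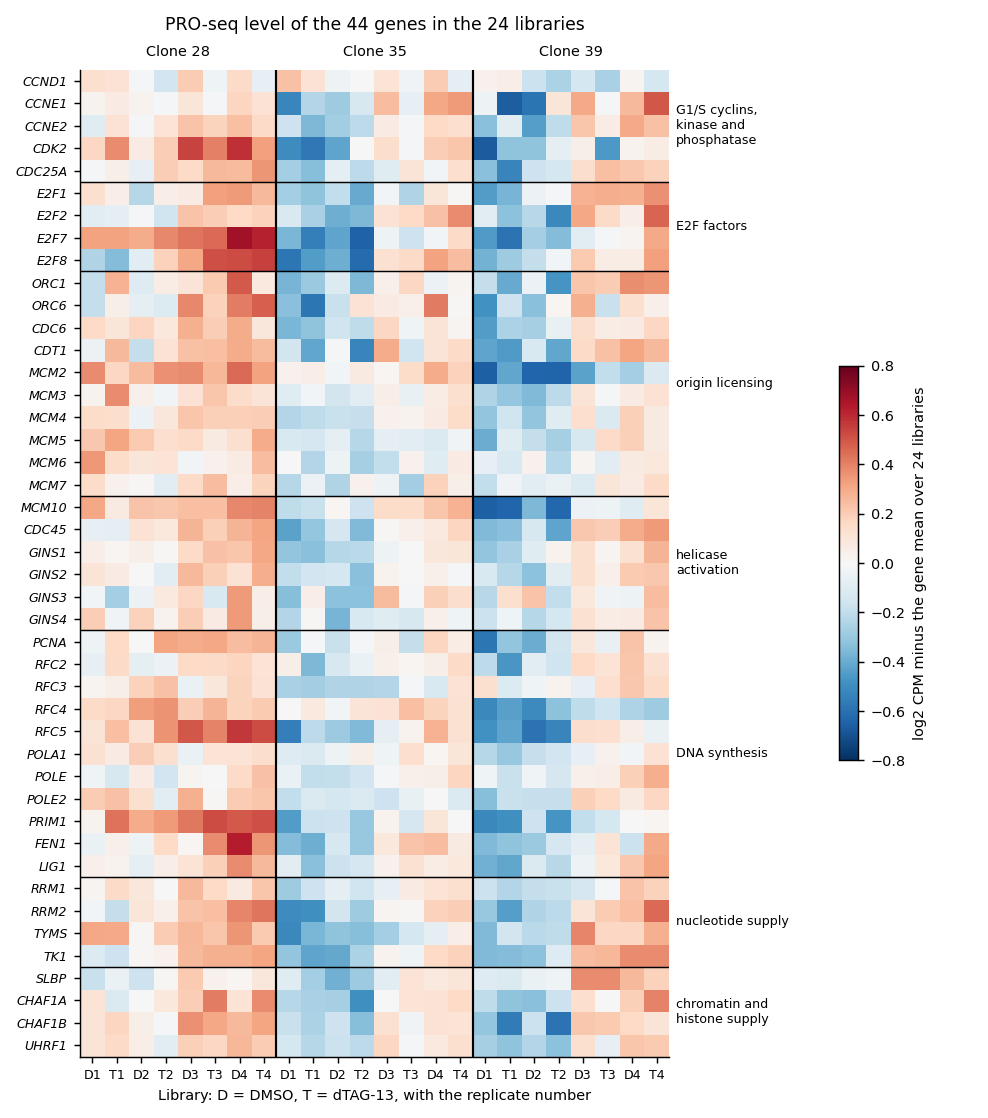
Heat map of the 44 genes (rows, by role) in the 24 libraries (columns, by clone and replicate number, D for DMSO and T for dTAG-13), coloured by log2 CPM minus the mean of the gene over all libraries. Columns with numbers 3 and 4 are redder than those with 1 and 2 for most rows, Clone 28 is redder than the other clones, and paired D and T columns look alike.

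The first comparison asks whether degradation of TRPS1 changed transcription of these genes within 90 minutes. With dTAG-13 against DMSO and the 3 clones together, 0 of 44 members passed an adjusted p (Benjamini-Hochberg, over all genes tested) of 0.1 in edgeR's quasi-likelihood test, where 0.551% of the 22326 genes tested did. At an unadjusted p under 0.05 there was 1 member, CCND1, where 6.32% of all genes had one, and DESeq2 also called 0. The median log2 fold change of the members was 0.01 (all genes tested: -0.00), and 27 of 44 were above 0. In this fit, which leaves out the pairing, the 95% intervals of the 44 members all lay between -0.29 and 0.35, the bounds of CDT1 and E2F8. With the 12 pairs as a block the SE of these genes was smaller. It was 0.0526 against 0.137 for E2F8 and 0.0609 against 0.106 for CDT1, so the intervals without pairs are wide.

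CCND1 (ENSG00000110092, chromosome 11, 69641156 to 69654474, here and below of the whole gene in build hg38) was the member with the largest difference. The CPM of replicates 1 to 4 in Clone 28 was 138, 125, 146 and 140.4 with DMSO against 137, 113, 123 and 121 with dTAG-13. For Clone 35 the values were 149, 123, 136 and 146 with DMSO against 137, 127, 124 and 120.2 with dTAG-13. For Clone 39 they were 129.5, 112, 115 and 128 with DMSO against 131, 106, 106 and 115 with dTAG-13. The 2 groups of each clone overlapped, while the dTAG-13 library was the lower one in 10 of 12 pairs. Without the pairing the log2 fold change was -0.12 (SE, the standard error, 0.0418, unadjusted p = 0.00637, adjusted p = 0.402 by edgeR's quasi-likelihood test). With the 12 pairs as a block it was -0.12 (SE 0.0302) with an adjusted p of 0.0141 in edgeR's quasi-likelihood test, the only member called, where 2.33% of all genes tested were called and 0.932% were called lower. With the block, leaving out any 1 of the 12 pairs kept the call, with adjusted p from 0.00418 to 0.0784.

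No other member passed the test. The largest positive values were those of FEN1, the flap endonuclease that trims Okazaki fragments (0.08, SE 0.0915), E2F8, a repressor E2F (0.06, SE 0.137), and CDC25A, the phosphatase that activates CDK2 (0.06, SE 0.0783). The most negative after CCND1 were those of CHAF1B, a subunit of the histone chaperone CAF-1 (-0.08, SE 0.0863), and CDT1, which loads the MCM helicase (-0.07, SE 0.106). The log2 fold change of CDT1 turned to 0.04 without Clone 35. Leaving out 1 library moved each of these by over 1.5 times, FEN1 to between 0.03 and 0.14 (without Clone 39 dTAG-13 replicate 4 and Clone 28 DMSO replicate 4), E2F8 to between 0.03 and 0.12 (without Clone 39 dTAG-13 replicate 4 and Clone 35 DMSO replicate 4) and CDC25A to between 0.04 and 0.10 (without Clone 39 DMSO and dTAG-13 replicate 1). CHAF1B became -0.04 without Clone 39 dTAG-13 replicate 2 and CDT1 -0.03 without Clone 35 DMSO replicate 3, so the order of these genes is not stable. For genes of the other roles the intervals, also without the pairing, were of similar width. They ran from -0.19 to 0.19 for E2F1, from -0.09 to 0.13 for MCM2 and from -0.11 to 0.21 for PCNA. That of RRM2, the small subunit of ribonucleotide reductase, ran from -0.23 to 0.24. CCNE1, encoding cyclin E1, had an interval from -0.23 to 0.22.

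Nor was a member called within a clone. In Clones 28, 35 and 39 the counts were 0, 0 and 0 of 44 in edgeR's quasi-likelihood test, where 0.0537% of all genes tested were called in Clone 28 and 0 genes in the others. At an unadjusted p under 0.05 they were 2 (CCND1 and GINS4), 0 and 0, against 4.83%, 2.89% and 3.38% of all genes, and DESeq2 called 0 in each clone. With the pairs as a block the edgeR counts were still 0, where 1.18%, 0.0941% and 0.0717% of all genes were called. The difference of the dTAG-13 effect between clones had 0 calls among the members by edgeR and by DESeq2, with 1 member by edgeR at an unadjusted p under 0.05 (GINS4, with -0.20, 0.08 and 0.09 in Clones 28, 35 and 39; 1.82% of all genes) and 0 calls among all genes tested. In none of the members was dTAG-13 higher in 12 of 12 pairs or lower in 12 of 12, which held for 0.363% and 0.197% of all genes. Of 59 other genes of the pathway that passed the filter, 0 were called, and 2 had an unadjusted p under 0.05.

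**Figure D2:**
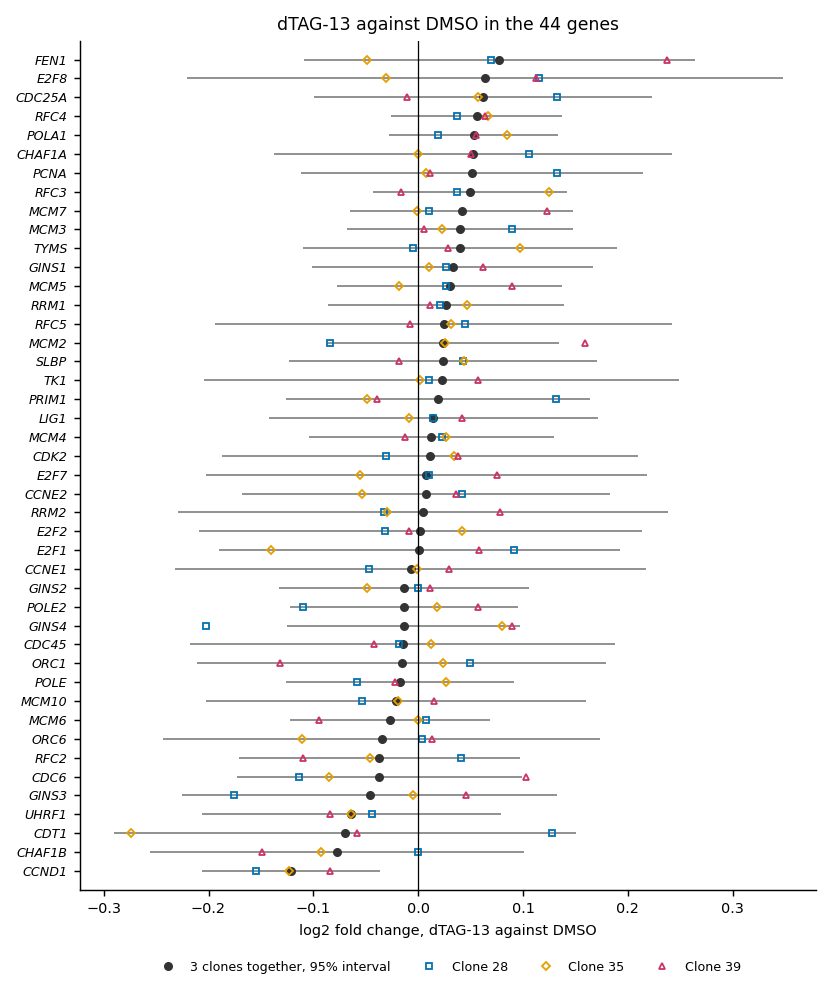
Log2 fold change of dTAG-13 against DMSO for each of the 44 genes (rows), with the 3 clones together as a dot and 95% interval and each clone as an open symbol. The intervals are those of the fit without the pairs, and all but that of CCND1 include 0.

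The second comparison asks how the clones differ before TRPS1 is degraded. In DMSO, Clone 28 had the highest mean CPM of the 3 clones for 41 of 44 members, all but CCND1, ORC1 and SLBP, which was so for 31.7% of all genes tested. In these bulk samples, fewer cells at G1/S and less transcription per cell cannot be told apart, here and in the results that follow. The difference between the clones was called for 14 of 44 members by edgeR's quasi-likelihood test, beside 28.5% of all genes tested, and DESeq2 also called 14. With the replicate number as a block 31 members were called, the 14 among them, beside 39.7% of all genes. In the dTAG-13 libraries 10 members were called, beside 27.5% of all genes.

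Against Clone 28, both other clones were lower. Clone 39 was lower than Clone 28 for all 14 members called in that contrast (26.7% of all genes tested were called, 14.3% lower), with a median over the 44 members of -0.18 on the log2 scale against -0.00 over all genes. Clone 35 was lower for all 7 members called (5.25% of all genes called, 3.01% lower), with a median of -0.19 against 0.01. With the block the counts were 25 lower and 1 higher (SLBP, by 0.15) for Clone 39 (18.4% of all genes lower) and 24 lower for Clone 35 (6.48%). Between Clones 39 and 35 there were 4 calls, MCM2, RFC4 and CCND1 lower in Clone 39 and RFC3 higher, where 22.6% of all genes were called.

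MCM2 (chromosome 3, 127598410 to 127622436), a subunit of the MCM2 to MCM7 helicase, had the largest difference. Its CPM in DMSO was 64.6, 59.5, 64.8 and 68.4 in Clone 28, 51.0, 49.1, 50.3 and 61.2 in Clone 35 and 31.7, 32.2, 37.1 and 41.4 in Clone 39. Clone 39 lay below both other clones without overlap. It was lower than Clone 28 by a log2 difference of -0.85 (SE 0.0968, adjusted p = 1.97e-08 by edgeR's quasi-likelihood test), and than Clone 35 by -0.57 (adjusted p = 2.45e-05 by the same test). The other 5 subunits differed less from Clone 28, from -0.29 for MCM5 to -0.11 for MCM6, and of these MCM5 was called, with MCM3 and MCM4 besides under the replicate block. Whether MCM2 differed from the other subunits in this was not tested.

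RFC4 (chromosome 3, 186789880 to 186807058) showed the same order. Its CPM in DMSO was 104, 118, 107 and 105 in Clone 28, 93.5, 91.8, 101 and 105 in Clone 35 and 65.3, 65.6, 80.9 and 78.5 in Clone 39. Clone 39 again lay below the others without overlap, with a log2 difference from Clone 28 of -0.58 (SE 0.0738, adjusted p = 1.87e-07 by edgeR's quasi-likelihood test).

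E2F7, MCM10 and GINS4 were the 3 members with Clone 28 above both other clones without overlap, which 1.92% of all genes showed. E2F7, a repressor E2F, had CPM values in DMSO of 81.5, 80.2, 87.8 and 104 in Clone 28, 50.5, 48.7, 63.4 and 64.3 in Clone 35 and 47.7, 54.0, 61.6 and 66.1 in Clone 39. Its log2 differences from Clone 28 were -0.63 in both clones (adjusted p = 0.0588 and 0.0193 for Clones 35 and 39 by edgeR's quasi-likelihood test). MCM10, which helps activate the helicase, had 97.0, 91.5, 92.1 and 102 CPM in Clone 28, 67.9, 79.0, 86.5 and 91.1 in Clone 35 and 49.7, 61.0, 75.7 and 73.1 in Clone 39. It differed by -0.56 in Clone 39 (adjusted p = 0.0156 by the same test) and by -0.23 in Clone 35 (adjusted p = 0.579, with the block 0.0811). GINS4 had 54.5 to 60.7 CPM in Clone 28 and 37.0 to 52.0 in the others, and differed by -0.38 in Clone 35 and -0.28 in Clone 39, yet in the dTAG-13 libraries its difference between Clones 39 and 28 was 0.01.

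The other members called lie in several roles. TYMS, thymidylate synthase, had 33.8, 27.4, 32.7 and 34.8 CPM in Clone 28, 19.1, 21.8, 22.6 and 25.9 in Clone 35 and 21.4, 23.4, 35.7 and 30.6 in Clone 39. Clone 35 lay below Clone 28 without overlap, by -0.51 from Clone 28 (adjusted p = 0.0191 by edgeR's quasi-likelihood test). Between Clones 39 and 28, CDK2 differed by -0.57, PRIM1 by -0.53, RFC5 by -0.53, FEN1 by -0.39, CDC6 by -0.34, POLE2 by -0.26, POLA1 by -0.22 and CCND1 by -0.18, and DESeq2 did not call FEN1 and CCND1. The value of FEN1 rested on 1 library, being -0.20 (adjusted p = 0.453 by edgeR's quasi-likelihood test) without Clone 28 DMSO replicate 4, and the F test over the 3 clones did not call it (adjusted p = 0.203 by the same test). Leaving out 1 library of the clones compared also ended the calls of CCND1, CDC6, MCM5, POLE2 and RFC5 between Clones 39 and 28 and of E2F7, MCM2, POLE2 and PRIM1 between Clones 35 and 28. By role this contrast called 2 of 5 cyclins, kinase and phosphatase, 1 of 4 E2F factors, 3 of 10 licensing factors, 2 of 6 helicase activators and 6 of 11 synthesis factors, and 0 genes of nucleotide, chromatin and histone supply. The fit blocked on replicate number called 3 of 4 nucleotide supply genes (RRM1, RRM2 and TYMS) and 3 of 4 chromatin and histone supply genes (UHRF1 and CHAF1B lower, SLBP higher). With that block 35.2% of all genes tested were called in the contrast of Clones 39 and 28, and 26.7% without it. RRM1 and TYMS were near the threshold (adjusted p = 0.0829 and 0.0841 by edgeR's quasi-likelihood test with the block). RFC3 was low in Clone 35 alone, by -0.30 from Clone 28 (adjusted p = 0.0275 by edgeR's quasi-likelihood test).

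The members with the largest differences between Clones 39 and 28 lie among genes that differ in the same direction. For each member the median log2 difference was taken over the protein-coding genes tested within 5 Mb, without the member itself. Around MCM2 it was -0.44 over 64 neighbours, of which 61 were below 0, and around RFC4 -0.33 over 57. Around MCM10 it was -0.32 over 40 neighbours, and around 4 of the 5 members on chromosome 12 from -0.24 for E2F7 to -0.21 for CDK2, PRIM1 and RFC5, CDK2 and PRIM1 sharing most of their neighbours. For these 7 members, which are the 7 with the largest differences from Clone 28, each differed more than the median around it. Around the other 7 members called in that contrast (FEN1, CDC6, MCM5, GINS4, POLE2, POLA1 and CCND1) the neighbours' median was between -0.03 and 0.08, and over all 44 members its median was 0.05. In Clone 35 the median around MCM2 and RFC4 was 0.07 and 0.05, and around the same 4 members on chromosome 12 it was between -0.22 and -0.20. Around TYMS it was -0.16 in Clone 35 over 18 neighbours, of which 17 were below 0. Between Clones 39 and 28, where TYMS was not called, the median around it was -0.17. The part of neighbouring genes in these differences was not tested.

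**Figure D3:**
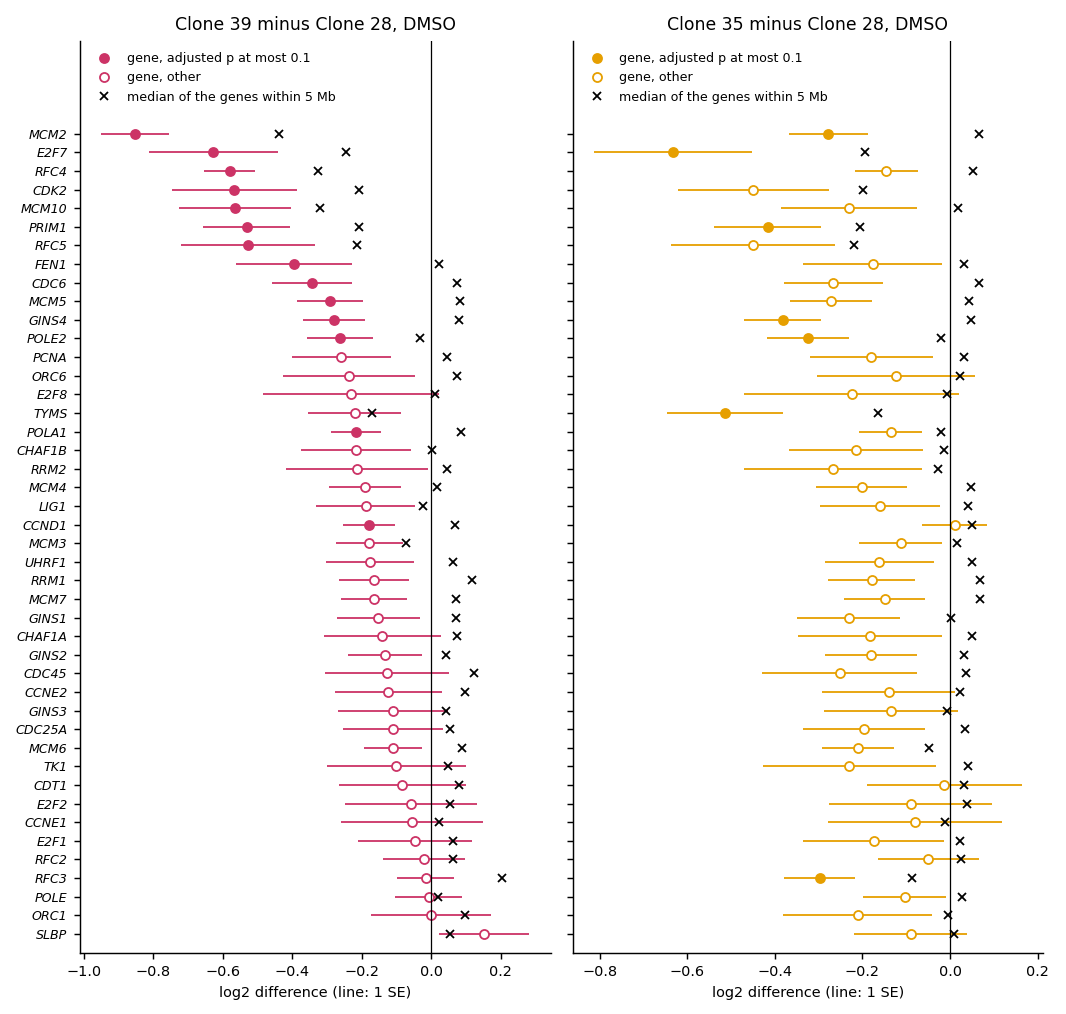
Log2 difference of Clone 39 (left) and Clone 35 (right) from Clone 28 in DMSO for each gene, with 1 SE, filled where the adjusted p was at most 0.1, and a cross at the median of the protein-coding genes within 5 Mb. Nearly all circles lie left of 0. The crosses follow them mainly for the upper 7 rows and TYMS in the left panel and a few rows of the right.

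The third comparison asks whether the collections, marked by the replicate number, differ, since both treatments of a clone were collected together. They did, for nearly all members and in 1 direction. The 4 numbers differed for 41 of 44 members in edgeR's quasi-likelihood test, beside 37.2% of all genes tested. In the contrast of numbers 3 and 4 against 1 and 2, a split chosen with earlier results of these data known, 41 members were called and all 41 were higher, where 40.8% of all genes were called and 20.7% were called higher. These tests treat the 24 libraries as separate, although those of a clone with the same number were collected together. With 2 numbers on each side of the contrast, the p-values do not measure the spread between collections. The median log2 difference was 0.27 over the members and -0.00 over all genes tested.

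The difference was visible library by library. As the median over members of the log2 deviation from each gene's mean, the 4 libraries of Clone 28 with numbers 1 and 2 lay between 0.03 and 0.08 and those with 3 and 4 between 0.20 and 0.25. In Clone 35 the ranges were -0.25 to -0.17 and -0.00 to 0.12, and in Clone 39 they were -0.32 to -0.18 and 0.06 to 0.19. In no clone did they overlap. Numbers 3 and 4 of Clone 35 were also sequenced more deeply (6332034 to 9575803 counts, against 4287721 to 5983480), while the ranges of depth overlapped in Clone 28 (4603793 to 6363411 against 4185233 to 5872542) and in Clone 39 (3226718 to 5293723 against 3933945 to 5192713). In 15 members the libraries with numbers 3 and 4 lay above those with 1 and 2 without overlap in 6 of 6 groups, which 2.06% of all genes did, and in 26 members in at least 5 groups (5.46% of all genes). With both treatments of a clone pooled, the ranges did not overlap in all 3 clones for 14 members, in 2 clones for 9, in 1 for 14 and in none for 7 (CCND1, CDK2, MCM2, MCM5, MCM6, MCM7 and GINS3). Number 4 had the highest mean deviation for 39 members, and the lowest was that of number 1 for 27 and of number 2 for 17.

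**Figure D4:**
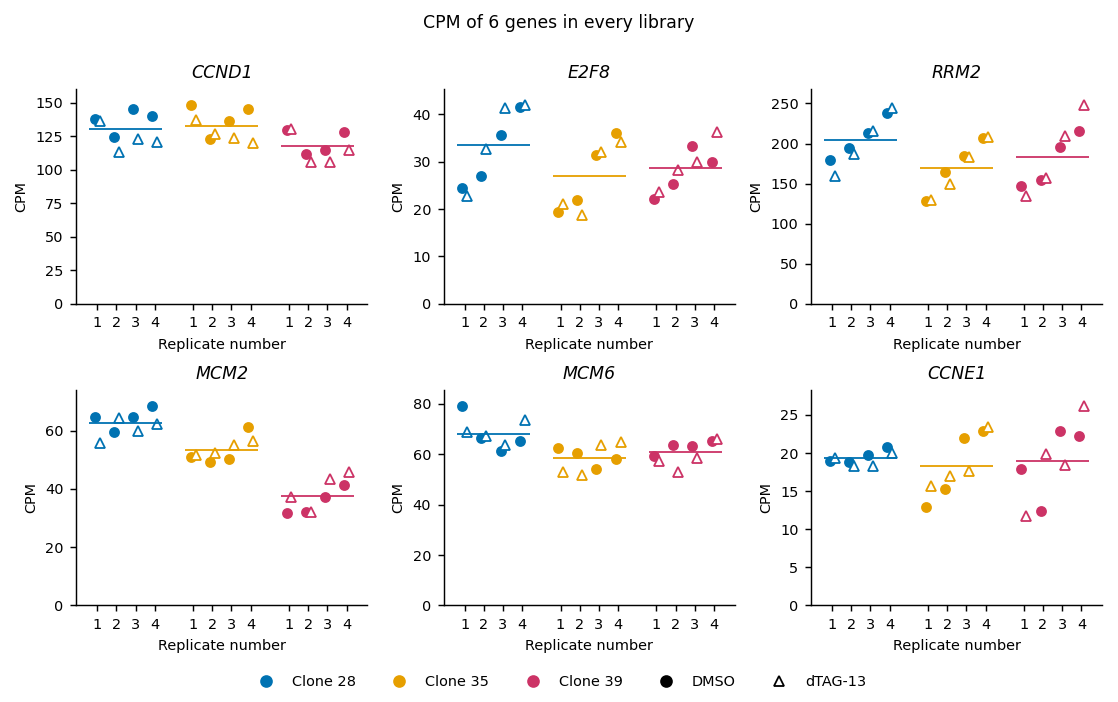
CPM of 6 genes in every library, by clone and replicate number, filled circles for DMSO and open triangles for dTAG-13, with a line at the mean of the 8 libraries of a clone. E2F8 and RRM2 are higher in numbers 3 and 4 of every clone, MCM2 is lowest in Clone 39, and for MCM6 and CCND1 the range of numbers 3 and 4 overlaps that of 1 and 2 in every clone.

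All 4 E2F factors were higher, with a median of 0.40. E2F8 (chromosome 11, 19224063 to 19241620) had the largest difference of all members. Its CPM ranged from 18.8 to 32.8 (median 23.2) in the 12 libraries with numbers 1 and 2 and from 30.0 to 42.1 (median 34.9) in those with 3 and 4. These ranges overlapped across clones, but within each of the 6 groups they did not. The log2 difference was 0.57 (SE 0.0545, adjusted p = 4.03e-13 by edgeR's quasi-likelihood test). E2F2, an activator E2F, followed with 0.43, E2F7 with 0.37 and E2F1, the best known activator, with 0.33. E2F1 ranged from 32.9 to 49.0 CPM (median 38.7) in numbers 1 and 2 and from 37.9 to 57.9 (median 54.1) in 3 and 4, and the ranges overlapped. E2F2 was the only member whose 12 libraries with numbers 3 and 4 all lay above the other 12, at 25.6 to 33.99 CPM against 17.2 to 24.5.

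Among the G1/S cyclins, kinase and phosphatase, 4 of 5 were higher and CCND1 was not. CCNE1 had 11.7 to 19.8 CPM (median 17.5) in numbers 1 and 2 and 17.7 to 26.1 (median 21.4) in 3 and 4, ranges that overlapped, with a log2 difference of 0.36 (SE 0.0772, adjusted p = 2.61e-04 by edgeR's quasi-likelihood test). CDK2, the partner of cyclin E, differed by 0.35, CCNE2, encoding cyclin E2, by 0.32 and CDC25A by 0.31. CCND1 differed by -0.01 (SE 0.0301, adjusted p = 0.918 by the same test). Its 4 numbers nevertheless differed (adjusted p = 4.57e-04 by the same test), with mean CPM over 6 libraries of 137 in number 1, 118 in number 2, 125 in number 3 and 128 in number 4. Cyclin D1 was thus highest in number 1, where 27 members were lowest.

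The nucleotide supply genes were higher in all 4 cases, with a median of 0.35. RRM2 (chromosome 2, 10120698 to 10211725) ranged from 128 to 194 CPM (median 156) in numbers 1 and 2 and from 183 to 249 (median 212) in 3 and 4, overlapping only between clones. It differed by 0.45 (SE 0.0293, adjusted p = 1.10e-19 by edgeR's quasi-likelihood test). TK1 ranged from 49.9 to 68.5 CPM (median 55.1) in numbers 1 and 2 and from 65.4 to 87.2 (median 80.4) in 3 and 4, again without overlap in each clone. It differed by 0.46 (SE 0.0358, adjusted p = 2.24e-16 by the same test), TYMS by 0.25 and RRM1, the large ribonucleotide reductase subunit, by 0.20.

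Of the 10 origin licensing factors 8 were higher. ORC6 and ORC1, of the origin recognition complex, differed by 0.38 and 0.36, CDT1 by 0.38 and CDC6, which works with CDT1 to load the helicase, by 0.25. The 6 MCM subunits had a median of 0.14, and 4 of them were called. MCM4 differed by 0.23, MCM3 by 0.16, MCM2 by 0.15 (SE 0.0414, adjusted p = 0.00251 by edgeR's quasi-likelihood test) and MCM7 by 0.12. MCM5 (0.09, adjusted p = 0.112) and MCM6 (0.04, adjusted p = 0.538) did not pass the same test. MCM6 ranged from 51.7 to 79.1 CPM (median 61.4) in numbers 1 and 2 and from 54.3 to 73.7 (median 63.6) in 3 and 4, almost wholly overlapping. Its log2 difference had a SE of 0.0410, and it was -0.09 in the DMSO libraries alone and 0.16 (adjusted p = 0.0233 by edgeR's quasi-likelihood test) in the dTAG-13 libraries alone.

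All 6 helicase activation factors were higher. CDC45, the helicase cofactor, ranged from 54.4 to 79.2 CPM (median 62.7) in numbers 1 and 2 and from 73.5 to 92.2 (median 84.2) in 3 and 4, overlapping only between clones. It had the largest difference of these (0.39, SE 0.0373, adjusted p = 1.09e-12 by edgeR's quasi-likelihood test), followed by MCM10 (0.31), GINS1 (0.27), GINS2 (0.25), GINS3 (0.21) and GINS4 (0.14). GINS3, the member with the lowest CPM, was called in this contrast (adjusted p = 0.0424 by the same test). It was not called over the 4 numbers (adjusted p = 0.163 by the same test). Its call in the contrast was lost without Clone 35 DMSO replicate 2 or 3.

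All 11 DNA synthesis factors were higher, over a wide range. The clamp loader subunits spanned it, from 0.41 for RFC5 and 0.24 for RFC2 to 0.09 for RFC4 and 0.09 for RFC3, and the call of RFC3 was lost without any 1 of several libraries of Clones 35 and 39. FEN1 differed by 0.37 and LIG1, the ligase that joins Okazaki fragments, by 0.30. The primase subunit PRIM1 differed by 0.26, PCNA by 0.24, the leading strand polymerase genes POLE and POLE2 by 0.20 and 0.15, and the polymerase alpha gene POLA1 by 0.10. PCNA ranged from 64.7 to 120.0 CPM (median 90.6) in numbers 1 and 2 and from 84.6 to 119.8 (median 106) in 3 and 4, so it overlapped widely, with an adjusted p of 0.00642 in edgeR's quasi-likelihood test.

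The 4 chromatin and histone supply genes were higher within a narrow range. CHAF1A and CHAF1B, both subunits of CAF-1, differed by 0.37 and 0.36, SLBP, which binds the stem-loop of histone mRNAs, by 0.29 and UHRF1, which maintains DNA methylation at replication forks, by 0.28. All 4 were called in each clone taken alone.

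**Figure D5:**
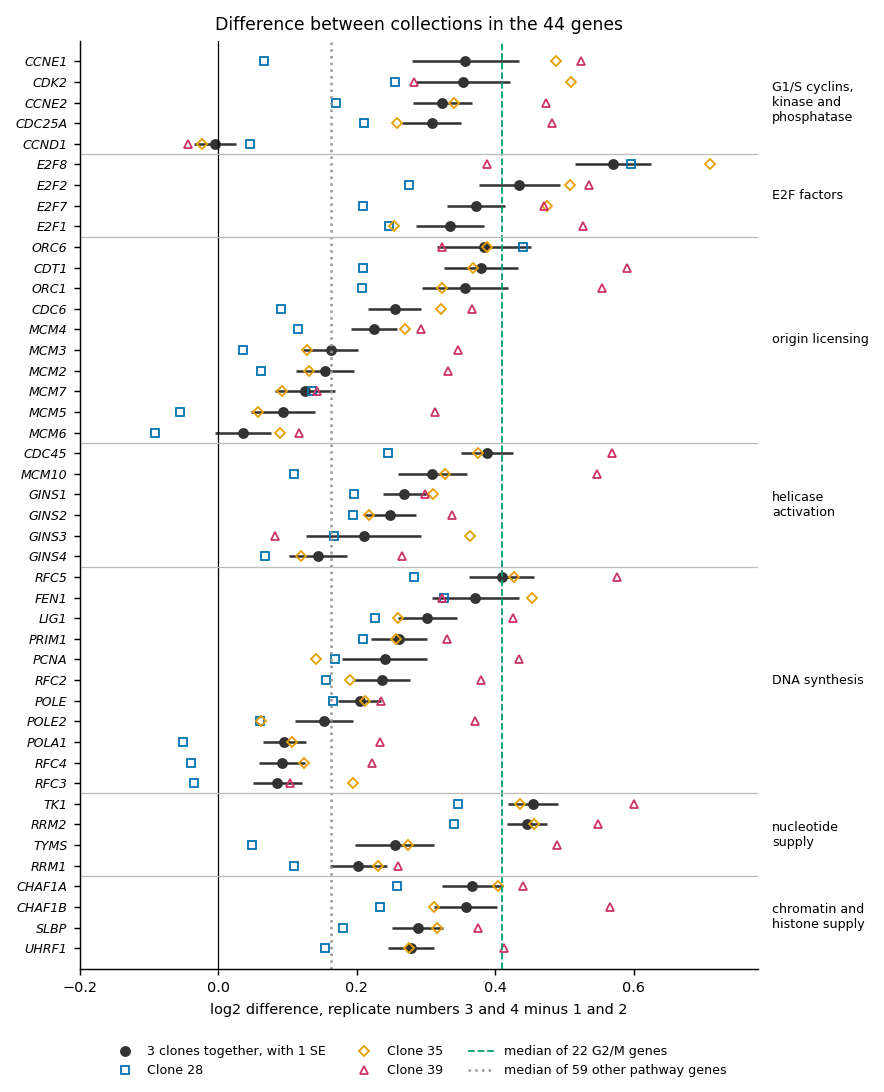
Log2 difference of replicate numbers 3 and 4 minus 1 and 2 for each of the 44 genes by role, with the 3 clones together as a dot with 1 SE, each clone as an open symbol, and lines at the medians of the G2/M genes (0.41) and of the other pathway genes (0.16). All dots but that of CCND1 lie right of 0, and the Clone 39 triangle is the rightmost symbol in most rows.

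The size of the difference varied with the clone without a call. In Clones 28, 35 and 39 taken alone, 21, 33 and 37 members were called in edgeR's quasi-likelihood test, all higher, beside 8.64%, 7.63% and 7.06% of all genes called higher. The medians over members were 0.17, 0.27 and 0.37. The difference was largest in Clone 39 for 35 of 44 members, which was so for 34.5% of all genes, and smallest in Clone 28 for 37. In Clone 28 none of the 6 MCM subunits was called and 5 members, MCM5, MCM6, RFC3, RFC4 and POLA1, were slightly below 0. The test of the difference between clones called 0 members by edgeR and 0 by DESeq2. At an unadjusted p under 0.05 there were 23 members by edgeR, beside 4.73% of all genes tested, but 2 by DESeq2. MCM10 came nearest (log2 differences of 0.11, 0.33 and 0.55 in Clones 28, 35 and 39, adjusted p = 0.339 by edgeR's quasi-likelihood test).

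The difference was not larger in members with E2F letters in the promoter, as a description. Members with E2F letters had a median of 0.24 (n = 20) and those without 0.36 (n = 17). MCM6, with 4 matches, had the smallest difference of the 20, and RRM2, with none in its windows, was the third largest of all members. For CCAAT the medians were 0.28 with and 0.27 without.

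Over all genes the difference was more positive in short genes, and the medians of the members lay above those of protein-coding genes in each of 5 bins of length. Protein-coding genes under 10 kb had a median log2 difference of 0.11 and those of 100 kb or more -0.10, whereas the 5 members under 10 kb had 0.37 and the 3 members of 100 kb or more 0.10. Between 20 and 50 kb, where 16 members lie, the medians were 0.28 for members and 0.03 for protein-coding genes. Length is again that of the annotated gene body, so GINS3, whose matched promoter lies inside that span, falls among those of 100 kb or more. Matched promoters of other members, such as GINS1, UHRF1 and RRM2, also lie inside the annotated span, so their lengths are uncertain too. The part of length in the members' difference was not tested.

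The same contrast was described for other genes of the pathway and for G2/M genes. Of 61 further genes of G1/S control and replication 59 passed the filter (CCND2 and CDCA7 did not), and 44 were called, 36 higher and 8 lower, with a median of 0.16. The 5 with the smallest p-values were all higher, POLA2 of polymerase alpha by 0.35, the checkpoint mediator CLSPN by 0.48, the chromatin factor ATAD2 by 0.24, the nuclease DNA2 by 0.32 and the origin firing factor TICRR by 0.43. ORC2, a further origin recognition subunit, and RBL2, the retinoblastoma-like p130, differed by -0.25 and -0.19, and are named after their values were seen. Of 22 G2/M genes 21 were called, all higher, with a median of 0.41, and CENPF was the exception. Of all genes tested 40.8% were called in this contrast, 20.7% higher.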

How the data were processed

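PRO-seq counts of 24 libraries were analysed, 4 replicates in each of 6 groups of clone and treatment. Per the labels and the study's methods, the authors removed adapters with cutadapt 1.8.1, aligned reads to hg38 with Bowtie2 2.4.4, handled alignments with SAMtools 1.9 and deposited whole-number counts per gene, neither normalised nor filtered. The window counted in a gene is not given in the sources used here. Of 60605 identifiers 60463 matched GENCODE release 44, and gene length is that of the annotated gene body.

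The 44 members and the other lists were chosen with earlier results of these data known. All tests were fitted on the whole table with edgeR 4.0.16 in R 4.3.3 (filterByExpr with a minimum count of 10, TMM scaling, robust quasi-likelihood F tests, Benjamini-Hochberg over 22326 genes, threshold 0.1) and were tested on simulated data. CPM uses TMM-scaled library sizes. DESeq2 1.42.0, other scaling, no filter, left-out libraries and clones, and the replicate block were alternatives, and leaving out each of 12 pairs under the block was added after seeing the data. Variance shares used log2 CPM with a prior count of 2. Every member may be named, with full values for called genes, extremes and 1 gene per role.

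Libraries of a clone with the same number were treated and collected together per the labels, which pairs them, and the correlation of their deviations from group means was 0.0926 to 0.318, over 0.1 in 11 of 12 pairs. Replicates of a group differed by more than sampling noise (chi-square per degree of freedom of at least 1.65). Antisense genes nested in another gene had a median density ratio of 0.041 to it against 0.844 for genes nested on the same strand, so the counting separated strands. Of the members, 8 overlap a gene on the same strand.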

Additional observations from a re-analysis of the deposited data

Results flagged for a closer look

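In 8 of 264 combinations of member and group (3.03%), 1 of the 4 replicates stood apart from the other 3 by more than Dixon's critical value. Chance flags about 1 in 20 groups. FEN1 had 32.2 CPM in Clone 28 DMSO replicate 4 (others 20.1 to 21.1), and GINS4 had 60.7 CPM in the same library (others 54.5 to 54.9). RRM1 had 60.3 CPM in Clone 39 DMSO replicate 4 (others 45.0 to 46.9). CDC6 had 69.3 CPM in Clone 28 dTAG-13 replicate 3 (others 64.0 to 64.5), and POLE2 had 57.9 CPM in Clone 35 dTAG-13 replicate 3 (others 55.6 to 55.7). The low ones were ORC6, with 13.5 CPM in Clone 35 dTAG-13 replicate 1 (others 20.2 to 21.8), CDT1, with 40.7 CPM in Clone 28 dTAG-13 replicate 2 (others 44.4 to 44.9), and RFC2, with 64.6 CPM in Clone 35 DMSO replicate 2 (others 72.6 to 73.0).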

How the results depend on the processing

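With the replicate block, 1 member instead of 0 was called for dTAG-13 and 31 instead of 14 between the clones, and the block changed no other treatment call. In Clone 28 alone 15 members instead of 41 differed between the 4 numbers, and 21 instead of 41 in the contrast of numbers 3 and 4 against 1 and 2. Without the filter on low counts the clone difference in that contrast called 1 member, MCM10 (adjusted p = 0.0367, edgeR's quasi-likelihood test). Leaving out 1 library at a time gave 0 to 0 calls for each treatment comparison, 10 (without Clone 28 DMSO replicate 4) to 17 (without Clone 39 DMSO replicate 4) between the clones, 40 to 42 for both tests of the numbers, and 0 to 2 for their clone difference (MCM10 and POLA1 without Clone 35 DMSO replicate 2, MCM10 without Clone 39 DMSO replicate 2). The log2 difference of CDT1 for dTAG-13 turned to 0.041 without Clone 35. In the contrast of the numbers, that of CCND1 turned to 0.033 with library totals only, 0.027 without the filter, 0.0039 without Clone 35, 0.0075 without Clone 39, 0.046 in Clone 28 alone and 0.064 in DMSO only, and ran from -0.020 to 0.011 over left-out libraries. MCM5 turned to -0.0018 without Clone 39 and -0.056 in Clone 28 alone, MCM6 to -0.0027, -0.092 and, in DMSO only, -0.095, and in Clone 28 alone RFC3 to -0.036, RFC4 to -0.040 and POLA1 to -0.051. GINS4 between Clones 39 and 28 was 0.012 in the dTAG-13 libraries. DESeq2 lost the calls of MCM7, GINS3, RFC3 and RFC4 between the numbers and of CCND1 and FEN1 between Clones 39 and 28. Of 2489 values of single genes under an alternative, 2334 kept direction and side of the threshold, 120 lost the call, 13 gained it and 22 reversed, and the cause was not tested. Of the 41 members called between the numbers, 38 kept their direction in every alternative and 39 their call without any 1 library. Depth (38 to 2942 counts per member and library) limits the lowest members most.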

Other observations

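The G2/M genes did not follow the clone order of the G1/S and replication genes. Their difference between numbers 3 and 4 and numbers 1 and 2 had a median of 0.49 in Clone 28, 0.47 in Clone 35 and 0.26 in Clone 39, where the 44 members had 0.17, 0.27 and 0.37. Of 22 G2/M genes 21, 21 and 16 were called in the 3 clones, 1 of the 16 lower, beside 17.3%, 14.6% and 14.5% of all genes tested. The test of the difference between clones called 0 of the 22 by edgeR's quasi-likelihood test. At an unadjusted p under 0.05 there were 10, beside 4.73% of all genes tested. The opposite order of the 2 lists was noticed in these data and was not tested.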
